A study of Homo sapiens with 9 samples.

Results

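Guidance genes encode the ligands and receptors that steer migrating cells and growing axons, and 67 of them were measured in human embryonic stem cells among 19775 genes with a probe set of their own. The members are the genes whose symbols belong to the ephrins (EFN), Eph receptors (EPH), semaphorins (SEMA), plexins (PLXN), neuropilins (NRP), SLITs, ROBO receptors, netrins (NTN) and UNC5 receptors. Each gene was read from its probe set of highest mean signal on all 9 arrays, so the choice used no difference between groups. The members have 168 probe sets in all, 49 of them have several, and 35 are ligands and 32 receptors. EPHB2 has no probe set assigned to it alone and was not analysed here.

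The cells were the established line WA09, at passages 32 to 38. In the RA group, with 3 arrays, they had been given 1 µM retinoic acid for 2 days in medium without added FGF, so that these arrays differ from the pluripotent ones in that growth factor too. In the DOX group, also with 3 arrays, cells had received DOX, here doxorubicin, a DNA-damaging drug, for 5 h, and the 3 pluripotent arrays hold untreated cells. Per the labels' protocols, cells grew on irradiated mouse embryonic fibroblasts or without feeders on Matrigel. Which of these gave which array is not stated, nor are the arrays of a group said to come from separate cultures, so p-values reflect the spread among these arrays alone, which may be technical. The series set DNA damage and differentiation beside the pluripotent state in order to study p53, the transcription factor that answers DNA damage.

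Ephrins are bound to the cell surface and signal to Eph receptor tyrosine kinases on neighbouring cells, and the ephrin-bearing cell can respond as well. Semaphorins signal through plexins, and the secreted ones use neuropilins as co-receptors, while SLITs act through ROBO receptors and netrins through DCC, neogenin and UNC5 receptors. In early embryos the same families separate cell populations, direct neural crest and shape vessels, and several UNC5 receptors can promote cell death when netrin is absent.

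All values are deposited log2 probe set signals. A log2 difference of 1 is a doubling, and a gene was called when its adjusted p was under 0.05 in limma's moderated test over all 19775 genes, with Benjamini-Hochberg adjustment. Signals of different probe sets do not rank transcripts, so the signals named next describe probe sets, and results rest on differences between arrays of the same probe set. Within each family the member with the highest mean signal over the 9 arrays was EPHA1 (8.49), EPHB4 (8.92), EFNA2 (8.29), EFNB2 (8.20), SEMA3F (7.97), SEMA4C (9.60), SEMA6A (10.41), PLXNA1 (8.66), NRP2 (6.46), SLIT1 (5.83), ROBO1 (9.87), NTN5 (5.23) and UNC5D (7.99). On the same scale 12 members lay below the median probe set (4.66) on all 9 arrays, namely EPHA3, EPHA5, EPHA6, NTN3, PLXNB3, ROBO2, SEMA3B, SEMA3C, SEMA3D, SEMA3E, SEMA3G and UNC5C. None of these 12 was called by limma in any comparison (0 of 12), although an unadjusted p under 0.05 was reached by 1 after DOX, by 2 after RA and by 1 between the treatments. Among all genes 15.3%, 6.47% and 21.2% were called in these comparisons. The share among equally dim genes was not computed, so the 0 of 12 is not a result about these members.

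**Figure D1:**
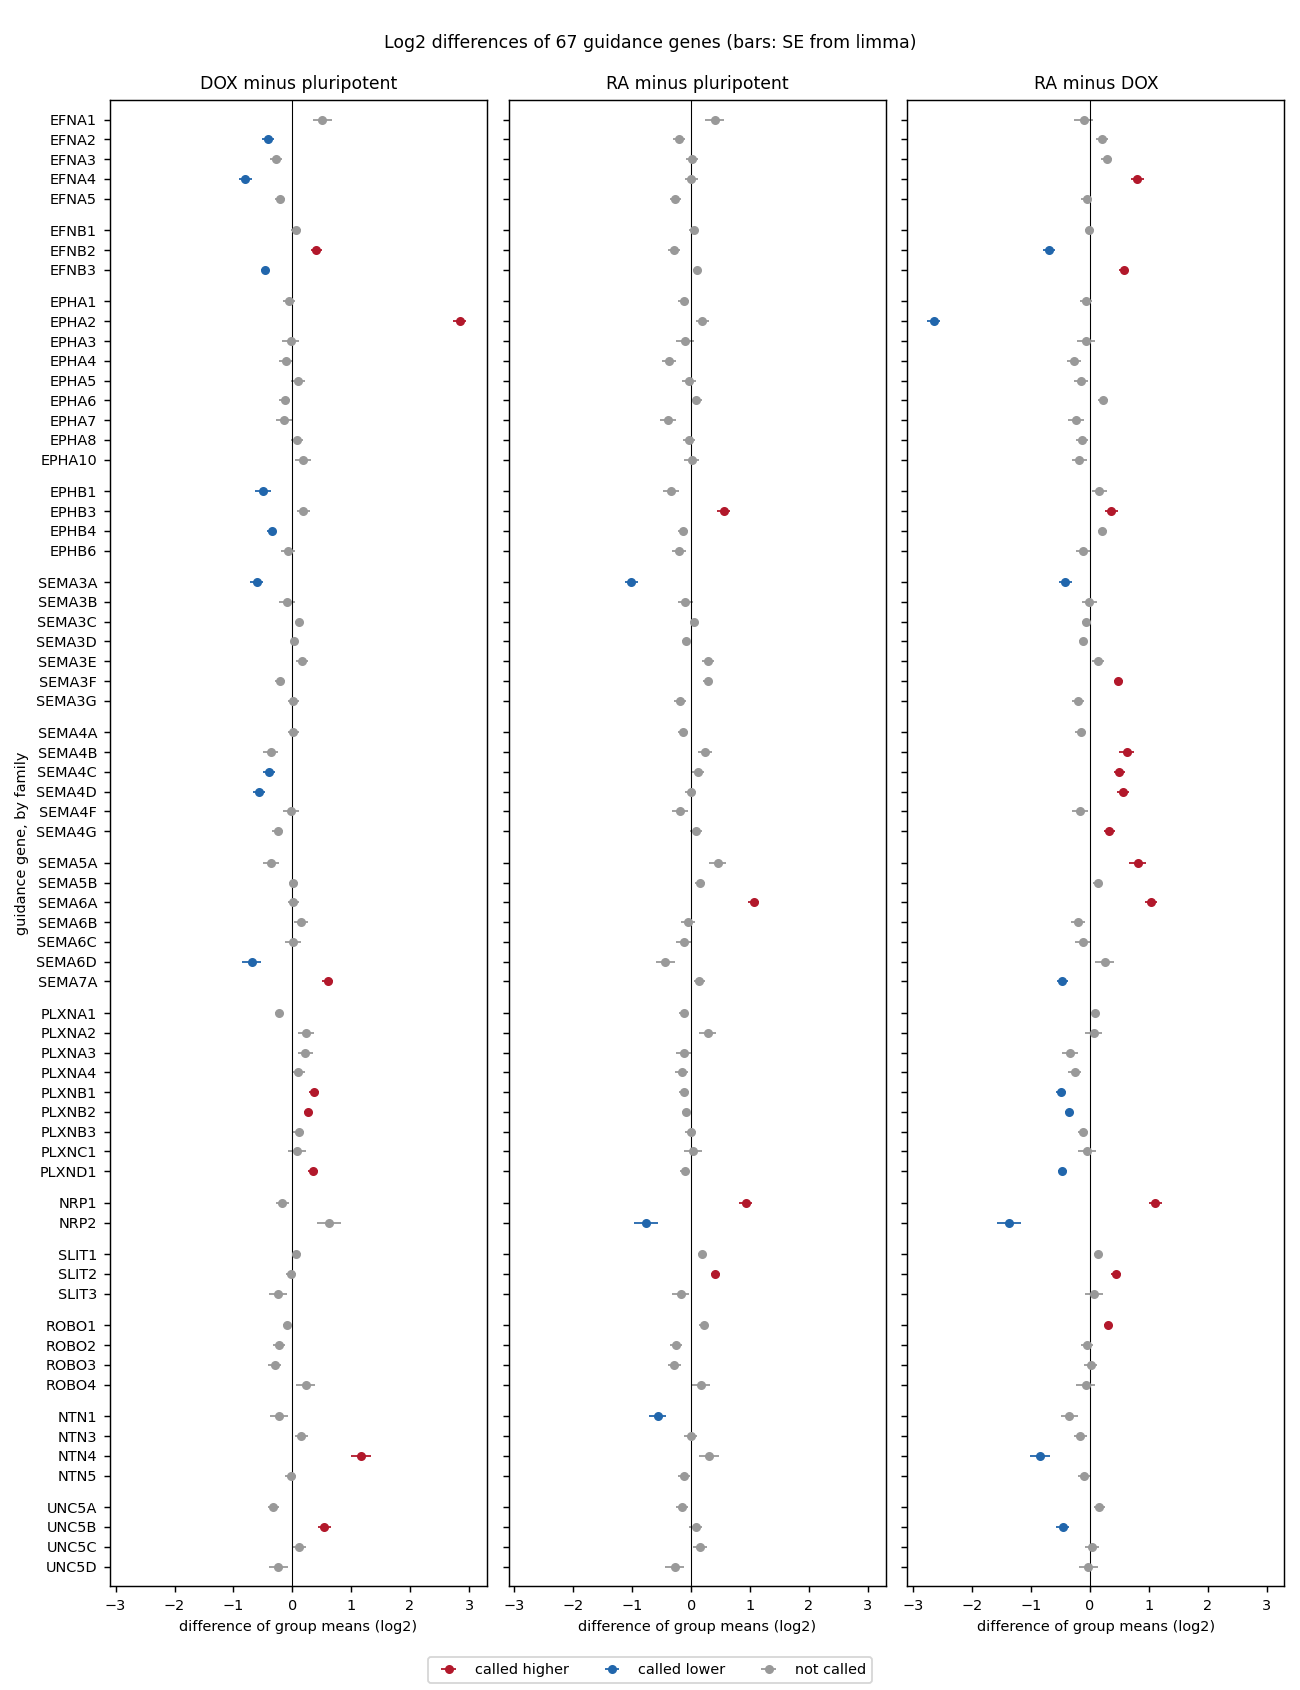
Log2 differences (horizontal axis) of the 67 guidance genes, 1 row per gene in family blocks, with panels for DOX minus pluripotent, for RA minus pluripotent, and for RA minus DOX. Points are differences of group means over 3 arrays each and bars are SE from limma. EPHA2 stands farthest from 0 in the panels for DOX minus pluripotent (2.84) and RA minus DOX (−2.65), and SEMA6A (1.06) and SEMA3A (−1.02) in that for RA minus pluripotent.

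On the probe sets used for the genes, 28 of the 67 were called in at least 1 comparison and 39 in none. The share of all genes called in at least 1 comparison was not computed, so these counts have no background. The shares called in each single comparison are given below beside those of all genes. The 39 ranged from −0.32 (UNC5A) to 0.51 (EFNA1) for DOX against pluripotent and from −0.39 (EPHA7) to 0.40 (EFNA1) for RA against pluripotent. Of all 67, 6 passed an absolute log2 difference of 1 in some comparison on the probe set used, namely EPHA2, NTN4, SEMA3A, SEMA6A, NRP1 and NRP2. On other probe sets UNC5B (1.62 after DOX) and EPHA4 (−1.45 after RA) passed it too. The share of all genes past 1 was not computed. The plot of all 67 genes shows that most of them lay close to 0 in each panel.

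The sequence upstream of EPHA2, SEMA4C and NTN4 is shown because these are the genes called after DOX whose window holds a match to a cAMP response element or a p53 half-site, of 4 motifs that were searched. The windows run from 250 bases before to 50 bases after the start of the gene, from RefSeq on GRCh38.p14, printed 5′ to 3′ on the strand of the gene with the match in capitals. EPHA2 (chr1:16156020-16156319, minus strand) and SEMA4C (chr2:96870031-96870330, minus strand) hold the cAMP response element TGACGTCA, starting at −51 and −40 from the gene start. NTN4 (chr12:95791106-95791405, minus strand) holds a p53 half-site that begins at −81, and also a nuclear receptor half-site, which is left in lower case.
EPHA2: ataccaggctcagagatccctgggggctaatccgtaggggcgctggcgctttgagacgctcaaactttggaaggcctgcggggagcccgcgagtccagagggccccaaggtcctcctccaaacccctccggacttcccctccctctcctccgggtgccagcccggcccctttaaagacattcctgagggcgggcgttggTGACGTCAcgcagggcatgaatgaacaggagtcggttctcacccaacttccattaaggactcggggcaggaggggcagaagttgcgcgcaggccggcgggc
SEMA4C: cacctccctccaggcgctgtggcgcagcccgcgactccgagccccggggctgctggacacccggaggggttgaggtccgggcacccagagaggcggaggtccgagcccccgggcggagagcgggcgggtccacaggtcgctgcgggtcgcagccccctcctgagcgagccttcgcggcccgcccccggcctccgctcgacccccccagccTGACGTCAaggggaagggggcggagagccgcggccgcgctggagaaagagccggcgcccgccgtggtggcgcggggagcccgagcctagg
NTN4: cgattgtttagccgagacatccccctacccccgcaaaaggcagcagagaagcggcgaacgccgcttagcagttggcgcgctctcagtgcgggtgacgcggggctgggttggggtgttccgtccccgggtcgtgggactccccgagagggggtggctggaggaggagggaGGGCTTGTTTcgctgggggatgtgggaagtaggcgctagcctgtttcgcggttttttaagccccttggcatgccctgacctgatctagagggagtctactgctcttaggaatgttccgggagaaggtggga

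These matches are descriptions of letters in a window and say nothing of whether a factor binds. Of the 67 genes, 57 had a window in the RefSeq table, with 88 windows in all because a gene can have several starts. On either strand, the cAMP response element was in 3 of the 88 windows (3.41%, EPHA2, SEMA3B and SEMA4C), against 1.85% of all 35116 windows. The p53 half-site was in 7 windows (7.95%) of 6 genes, NTN4, ROBO1, ROBO3, SEMA3F, SEMA4G and SEMA5B, against 6.63% of all windows. The AP-1 site TGANTCA was in 1 window (1.14%, PLXNC1) against 7.71%, and the nuclear receptor half-site AGGTCA in 9 windows (10.2%) of EFNA4, NTN4, ROBO4, SEMA3E, SEMA3F, SEMA4A, SEMA4G, SEMA5A and SEMA5B against 13.8%. The 2 shorter letter motifs can overlap other motifs and were counted regardless.

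The first comparison asks what 5 h of DOX did to these genes. The receptor gene EPHA2 was 7.16-fold higher, the largest difference among the 67 genes in either direction, and 8 guidance genes were called higher and 9 lower. Among all genes 5.67% were called higher and 9.6% lower. In both directions together 17 of 67 members (25.4%) were called, against 15.3% of all genes, while the median difference of the members was −0.016 and that of all genes −0.005. Of the 35 ligands 3 were called higher and 7 lower, and of the 32 receptors 5 were called higher and 2 lower, with median differences of −0.023 for ligands and 0.082 for receptors. In bulk RNA such as this, fewer cells of a type and less RNA per cell cannot be told apart.

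Ephrin ligands and their receptors were called in both directions. EPHA2, the receptor tyrosine kinase that binds ephrin-A1, measured 8.39, 8.61 and 8.64 on the DOX arrays, against 5.91, 5.63 and 5.58 on the pluripotent arrays. The means were 8.55 ± 0.14 and 5.71 ± 0.18 (SD, n = 3 arrays each), a difference of 2.84 ± 0.11 (SE, limma adjusted p = 5.3e-08). The lowest DOX array thus stood far above the highest pluripotent array. Its ligand gene EFNA1 was at 0.51 (95% interval 0.15 to 0.87) and was not called (adjusted p = 0.063), although its DOX and pluripotent arrays did not overlap.

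EFNA4, a membrane-anchored ligand of EphA receptors, measured 7.04, 6.77 and 6.59 after DOX and 7.68, 7.68 and 7.42 in pluripotent cells, which is 1.74-fold lower (−0.80 ± 0.11, adjusted p = 0.00083). EFNB3, a transmembrane ligand of EphB receptors, measured 7.37, 7.22 and 7.34 after DOX and 7.78, 7.77 and 7.81 in pluripotent cells (−0.47 ± 0.07, adjusted p = 0.0011). In both genes every DOX array lay below every pluripotent array. EFNA2 was also lower (−0.41 ± 0.10, adjusted p = 0.018), but EFNB2, the ligand of EPHB4 that marks arteries, was higher (0.41 ± 0.10, adjusted p = 0.019). Ephrins were thus called higher in 1 and lower in 3 of 8 cases. Of the 13 Eph receptors, EPHA2 was called higher and EPHB1 (−0.50 ± 0.13, adjusted p = 0.025) and EPHB4 (−0.35 ± 0.08, adjusted p = 0.013) lower. The EPHB1 groups overlapped, at 4.71, 4.65 and 5.03 on the DOX arrays and 5.43, 5.45 and 5.02 on the pluripotent arrays.

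Semaphorins were called lower in 4 and higher in 1 of 20 cases. SEMA3A, the secreted ligand that repels axons through neuropilin-1, measured 6.10, 6.17 and 6.33 on the DOX arrays and 6.82, 6.72 and 6.85 on the pluripotent arrays (−0.60 ± 0.11, adjusted p = 0.0033). SEMA4D, a ligand of plexin-B1, measured 7.10, 6.93 and 7.15 after DOX and 7.64, 7.79 and 7.46 in pluripotent cells (−0.57 ± 0.10, adjusted p = 0.0022). Neither gene's groups overlapped. SEMA4C, a ligand of plexin-B2 (−0.39 ± 0.10, adjusted p = 0.021), and SEMA6D, a transmembrane ligand of plexin-A1 (−0.69 ± 0.16, adjusted p = 0.013), were lower too. The exception was SEMA7A, a membrane-anchored ligand of plexin-C1 and integrins, at 6.88, 6.92 and 7.12 after DOX and 6.28, 6.28 and 6.54 in pluripotent cells (0.60 ± 0.09, adjusted p = 0.0015).

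Plexins, the signalling receptors for semaphorins, were called higher in 3 and lower in 0 of 9 cases by limma, and 4 of the 9 had an unadjusted p under 0.05. PLXND1, a receptor of vessels, measured 7.88, 7.72 and 7.71 after DOX and 7.45, 7.46 and 7.35 in pluripotent cells (0.35 ± 0.08, adjusted p = 0.01). PLXNB1 (0.37 ± 0.09, adjusted p = 0.019) and PLXNB2 (0.27 ± 0.07, adjusted p = 0.029) were higher by similar amounts, so that all 3 differences were under 1.3-fold (1.28, 1.29 and 1.21). In the netrin system the basement membrane ligand NTN4 was called higher, at 4.65, 4.89 and 4.17 after DOX and 3.38, 3.51 and 3.36 in pluripotent cells (2.23-fold, 1.16 ± 0.17, adjusted p = 0.001). These pluripotent values lie below the median probe set, where the normalization compresses differences. The DOX values 4.65 and 4.17 and the RA values 3.65, 4.0 and 3.51 lie below it too, and only the DOX value 4.89 above. The receptor gene UNC5B was higher as well, at 7.94, 7.97 and 7.99 after DOX and 7.20, 7.47 and 7.61 in pluripotent cells (0.54 ± 0.11, adjusted p = 0.0062). Of the 3 SLITs 0 and of the 4 ROBO genes 0 were called by limma, while 0 and 2 of them had an unadjusted p under 0.05.

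**Figure D2:**
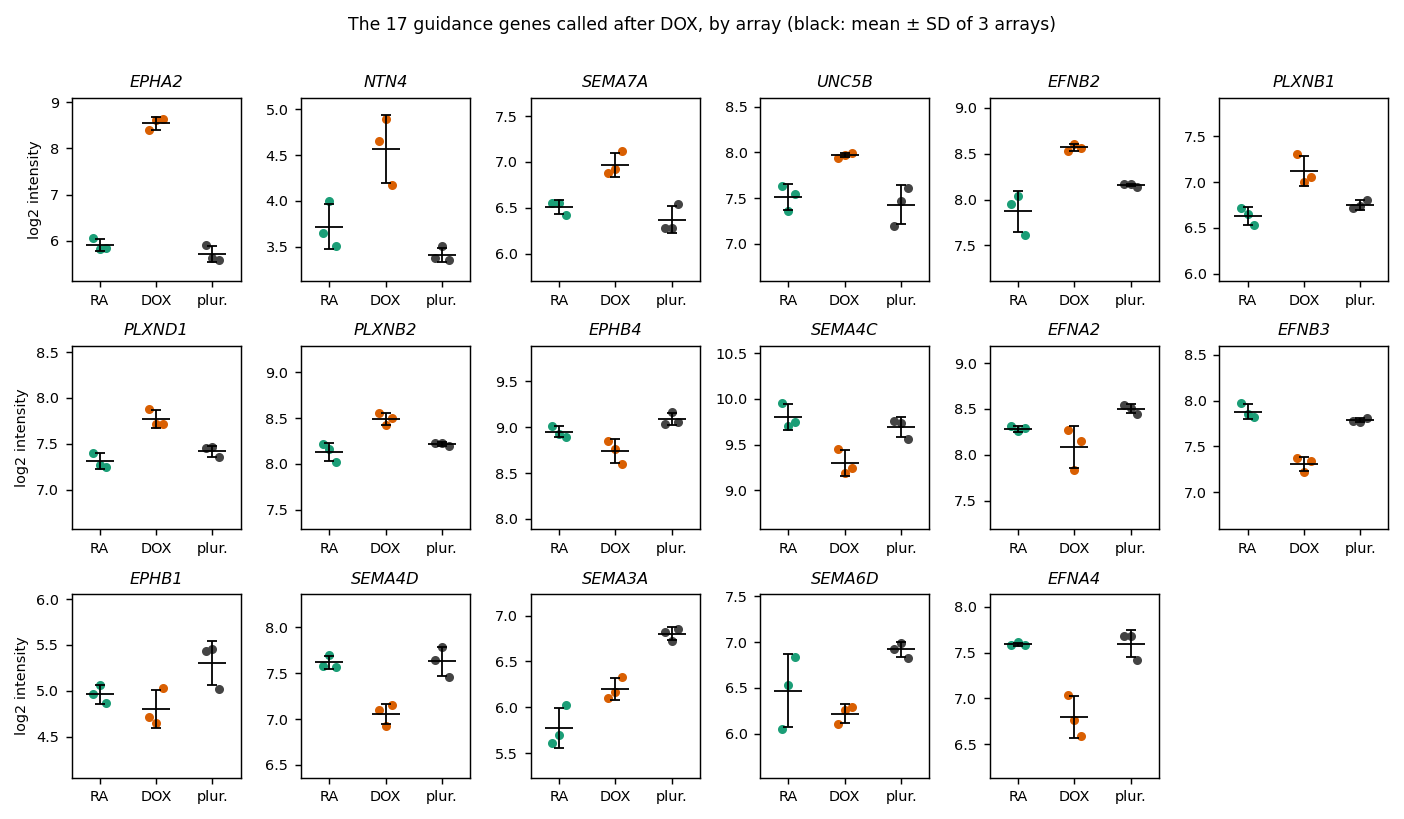
Log2 signal (vertical axis) of the 17 guidance genes called for DOX against pluripotent, with 1 panel per gene and 1 point per array in the RA, DOX and pluripotent (plur.) groups, with the mean ± SD of 3 arrays in black and a scale of its own in each panel. In every panel but that of EPHB1 the 3 DOX arrays lie on one side of the 3 pluripotent arrays. The genes were picked by their calls on these same arrays, so this separation is not further support. Some genes that were not called, such as EFNA1, do not overlap either, and the share among all genes was not computed.

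Of the 17 calls, 8 were lost when some 1 array was left out. EPHB1 and SEMA4C lost theirs without any 1 of 4 arrays each, EFNB2 without any 1 of 4, PLXNB1 without any 1 of 3, PLXNB2 without any 1 of 5, EFNA2 without pluripotent replicate 1 or 2, and EPHB4 and SEMA6D without pluripotent replicate 2, with adjusted p from 0.051 to 0.10. The arrays were DOX replicates 1 and 2 and pluripotent replicates 1 and 2 for EPHB1, DOX replicates 2 and 3 and pluripotent replicates 1 and 2 for EFNB2 and SEMA4C, DOX replicate 1 and pluripotent replicates 1 and 2 for PLXNB1, and DOX replicates 1 and 3 and pluripotent replicates 1, 2 and 3 for PLXNB2. When the probe sets of each gene were averaged, EFNA2, EFNB2, EFNB3, EPHB1, EPHB4, PLXNB1, PLXNB2 and SEMA3A lost their calls (adjusted p 0.061 to 0.28).

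The second comparison asks what 2 days of RA did. SEMA6A was 2.08-fold higher and NRP1 1.91-fold higher, and SEMA3A was 2.03-fold lower. In all, 4 guidance genes were called higher and 3 lower, where 3.16% of all genes were called higher and 3.32% lower. The 7 calls are 10.4% of the members, against 6.47% of all genes. The median difference was −0.045 for the members and −0.004 for all genes. Ligands were called higher in 2 and lower in 2 of 35 cases, and receptors higher in 2 and lower in 1 of 32.

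Among the semaphorin genes SEMA6A, a transmembrane ligand of plexin-A2 and plexin-A4, measured 11.25, 11.13 and 10.95 on the RA arrays and 10.15, 10.10 and 9.90 on the pluripotent arrays (1.06 ± 0.10, adjusted p = 8.2e-05). SEMA3A measured 5.61, 5.70 and 6.02 on the RA arrays, against 6.82, 6.72 and 6.85 on the pluripotent arrays (−1.02 ± 0.11, adjusted p = 0.00017). The groups did not overlap for either gene. SEMA3A is also the 1 gene called both after RA and after DOX on the probe sets used for the genes. These comparisons share the pluripotent arrays.

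The co-receptors of the secreted semaphorins were called in opposite directions. NRP1, the co-receptor for SEMA3A and for VEGF, measured 6.35, 6.58 and 6.39 on the RA arrays and 5.62, 5.58 and 5.33 on the pluripotent arrays (0.93 ± 0.11, adjusted p = 0.00032). NRP2, the co-receptor for SEMA3F, measured 5.91, 5.24 and 6.07 on the RA arrays and 6.45, 6.49 and 6.58 on the pluripotent arrays (−0.77 ± 0.20, adjusted p = 0.049). Every RA array thus lay above the pluripotent arrays for NRP1 and below them for NRP2. None of the 9 plexins was called by limma after RA (0 of 9, also 0 at an unadjusted p under 0.05).

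SLIT2, a secreted ligand of ROBO1, was called higher, at 5.39, 5.57 and 5.35 on the RA arrays and 5.03, 5.10 and 4.94 on the pluripotent arrays (1.33-fold, 0.41 ± 0.08, adjusted p = 0.01). EPHB3, a receptor for B-class ephrins, was higher with 6.77, 6.60 and 6.25 on the RA arrays and 5.97, 5.99 and 6.02 on the pluripotent arrays (0.55 ± 0.11, adjusted p = 0.012). NTN1, the founding vertebrate netrin, was called lower (−0.57 ± 0.15, adjusted p = 0.049), but its groups overlapped at 4.91, 4.51 and 4.46 on the RA arrays and 4.86, 5.29 and 5.45 on the pluripotent arrays. On the probe sets used for the genes, none of the 8 ephrins was called by limma (0 of 8, 3 at an unadjusted p under 0.05). None of the 4 UNC5 receptors was called there either (0 of 4, 0 unadjusted), although UNC5B was called higher on other probe sets (0.86 and 0.41). EPHA2, which was high after DOX, was at 6.05, 5.82 and 5.83 after RA, 0.19 from the pluripotent level (95% interval −0.05 to 0.43, adjusted p = 0.42).

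**Figure D3:**
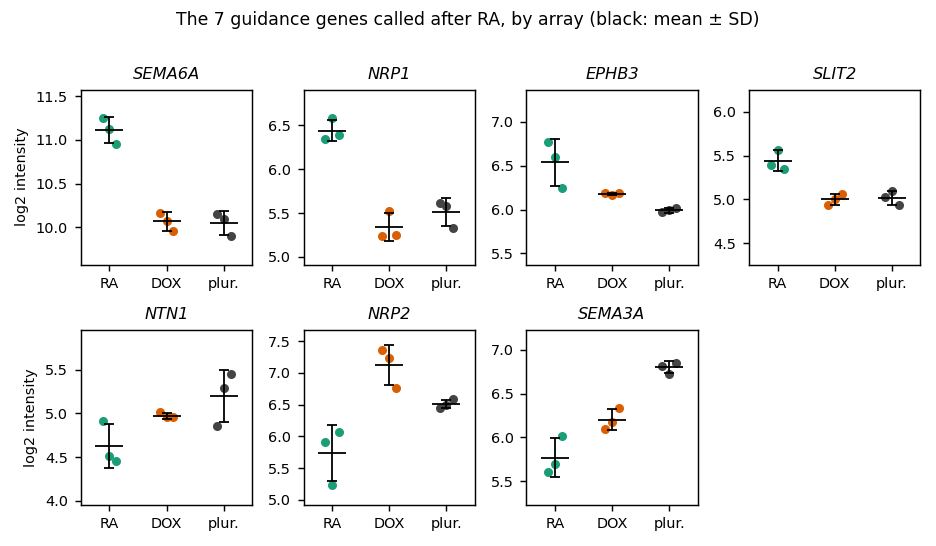
Log2 signal (vertical axis) of the 7 guidance genes called for RA against pluripotent, with 1 panel per gene and 1 point per array in the RA, DOX and pluripotent (plur.) groups, with the mean ± SD of 3 arrays in black and a scale of its own in each panel. The RA arrays of SEMA6A, NRP1, EPHB3 and SLIT2 lie above, and those of SEMA3A and NRP2 below, all pluripotent arrays, while the NTN1 groups overlap. The genes were picked by their calls on these same arrays, so this separation is not further support.

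The calls of SEMA6A, NRP1, SLIT2 and SEMA3A held without any 1 of the 6 compared arrays. NRP2 lost its call without RA replicate 1 or 2 or any 1 pluripotent replicate (adjusted p 0.081 to 0.13), NTN1 without RA replicate 2 or 3 or pluripotent replicate 2 or 3 (0.14 to 0.17), and EPHB3 without RA replicate 2 or pluripotent replicate 1 (0.05 to 0.058).

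Set directly against each other, the RA and DOX arrays differed for 23 of the 67 genes (34.3%, against 21.2% of all genes), 13 higher and 10 lower after RA. Among all genes 12.6% were called higher and 8.62% lower. Semaphorins were called higher in 7 and lower in 2 of 20 cases, and plexins higher in 0 and lower in 3 of 9 (5 at an unadjusted p under 0.05). The median difference was −0.059 for the members and −0.004 for all genes. This comparison uses the same RA and DOX arrays as the previous ones, so it is not separate evidence about either group. The RA arrays also differ from the DOX arrays in time, 2 days against 5 h, and the RA medium lacked added FGF. Treatment, time and medium cannot be told apart here.

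The receptor EPHA2 was 6.27-fold lower after RA than after DOX (−2.65 ± 0.11, adjusted p = 4.4e-08). NRP2 was 2.6-fold lower, at 5.91, 5.24 and 6.07 on the RA arrays and 7.36, 7.24 and 6.76 on the DOX arrays (−1.38 ± 0.20, adjusted p = 0.0006). NRP1 was 2.15-fold higher, at 6.35, 6.58 and 6.39 on the RA arrays and 5.24, 5.52 and 5.25 on the DOX arrays (1.11 ± 0.11, adjusted p = 3.3e-05). The neuropilin genes therefore differed in opposite directions between the treatments, with no overlap of the arrays in either gene.

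Class 4 semaphorins, which are transmembrane ligands, were called higher after RA than after DOX in 4 of 6 cases, SEMA4B (0.62 ± 0.12, adjusted p = 0.004), SEMA4C (0.50 ± 0.10, adjusted p = 0.0038), SEMA4D (0.56 ± 0.10, adjusted p = 0.0016) and SEMA4G (0.33 ± 0.10, adjusted p = 0.038). SEMA4B measured 8.24, 8.03 and 8.0 after RA and 7.42, 7.31 and 7.69 after DOX, with pluripotent arrays at 7.91, 7.99 and 7.64. Against pluripotent cells it was called in neither comparison, at 0.24 after RA (adjusted p = 0.35) and −0.37 after DOX (adjusted p = 0.065). Other semaphorins called higher were SEMA6A (1.04 ± 0.10, adjusted p = 3.2e-05), SEMA5A, a transmembrane ligand with thrombospondin repeats (0.81 ± 0.14, adjusted p = 0.0017), and SEMA3F, the ligand of neuropilin-2 (0.48 ± 0.08, adjusted p = 0.0018). SEMA5A measured 6.90, 7.09 and 6.89 after RA and 6.08, 6.27 and 6.10 after DOX, and its pluripotent arrays, at 6.79, 6.58 and 6.16, spread between the treatments. SEMA7A (−0.47 ± 0.09, adjusted p = 0.0048) and SEMA3A (−0.42 ± 0.11, adjusted p = 0.016) were lower.

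The remaining calls were spread over the other families. EFNA4 (0.80 ± 0.11, adjusted p = 0.00048) and EFNB3 (0.57 ± 0.07, adjusted p = 0.0002) were higher after RA than after DOX and EFNB2 lower (−0.70 ± 0.10, adjusted p = 0.00051). SLIT2 (0.44 ± 0.08, adjusted p = 0.0026), the SLIT receptor gene ROBO1 (0.30 ± 0.07, adjusted p = 0.0071) and EPHB3 (0.36 ± 0.11, adjusted p = 0.042) were higher. ROBO1 measured 9.99, 10.07 and 10.07 after RA and 9.69, 9.73 and 9.81 after DOX, so the groups did not overlap although the difference was 1.23-fold. NTN4 (−0.85 ± 0.17, adjusted p = 0.0044), UNC5B (−0.46 ± 0.11, adjusted p = 0.011), PLXNB1 (−0.49 ± 0.09, adjusted p = 0.0028), PLXND1 (−0.47 ± 0.08, adjusted p = 0.0014) and PLXNB2 (−0.36 ± 0.07, adjusted p = 0.0048) were lower. EPHB3 lost its call without DOX replicate 1, 2 or 3 or RA replicate 1 or 2, SEMA4G without DOX replicate 1 or 2 or RA replicate 1 or 3, and SEMA3A without DOX replicate 3 or RA replicate 1 or 2 (adjusted p 0.065 to 0.14).

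Several genes were read by more than 1 probe set, and these were also fitted one by one over every probe set. Of the 17 genes called after DOX 14 had several, and another probe set was called in the same direction for 1, UNC5B, and in the opposite direction for 0. After RA 3 of 7 had such a second call, NRP1, NRP2 and SEMA6A, and for RA against DOX 7 of 18 (NRP1, NRP2, PLXND1, SEMA3F, SEMA4C, SEMA6A and UNC5B), with 0 opposite in both. In this limma fit the probe set used for the gene was itself not called after RA for NRP2 (adjusted p = 0.068) and NTN1 (0.069). The same held for EPHB3 (0.058) and SEMA4G (0.055) for RA against DOX. SEMA6A was called higher after RA on 4 of its 5 probe sets, at 1.06, 0.64, 1.06 and 0.73. NRP1 was called higher on 2 of its 4 probe sets, and the call of SLIT2 rests on 1 probe set, since the one used when those ending in x_at and s_at are left out was at −0.012 (adjusted p = 0.99).

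UNC5B differed more on its dimmer probe sets than on the brightest one. On the second, with a mean signal of 7.22, the arrays measured 7.23, 7.23 and 7.29 after RA, 7.90, 8.23 and 7.90 after DOX and 6.47, 6.43 and 6.27 in pluripotent cells. That is 3.08-fold higher after DOX (1.62, adjusted p = 2e-06) and 1.82-fold higher after RA (0.86, adjusted p = 0.00045), with no overlap among the 3 groups. Another probe set was at 1.07 after DOX (adjusted p = 1.2e-05) and 0.41 after RA (adjusted p = 0.017).

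NRP2 has 11 probe sets, and after DOX 1 of the 10 dimmer ones differed more than the brightest. On that probe set, with a mean signal of 4.69, it measured 3.58, 3.75 and 3.76 after RA, 6.06, 6.26 and 5.88 after DOX and 4.39, 4.27 and 4.29 in pluripotent cells. It was called higher after DOX there (3.36-fold, 1.75 ± 0.10, adjusted p = 1.2e-06) and lower after RA (−0.62 ± 0.10, adjusted p = 0.0047), whereas the brightest probe set was at 0.62 after DOX (adjusted p = 0.067 in the fit over genes). Another NRP2 probe set, with a mean signal of 4.56, was also called higher after DOX (0.58 ± 0.10, adjusted p = 0.0043) but was not called after RA. EPHA4, an Eph receptor of the hindbrain and limb, was called in neither comparison on its brightest probe set but lower on another with a mean signal of 5.53, by RA (−1.45 ± 0.23, adjusted p = 0.0048) and by DOX (−0.99 ± 0.23, adjusted p = 0.021). SEMA3F, not called after DOX on its brightest probe set, was called lower on another with a mean signal of 5.77 (−0.41 ± 0.09, adjusted p = 0.012). What each probe set reads of a transcript was not examined, and these probe sets were singled out after their values were seen.

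**Figure D4:**
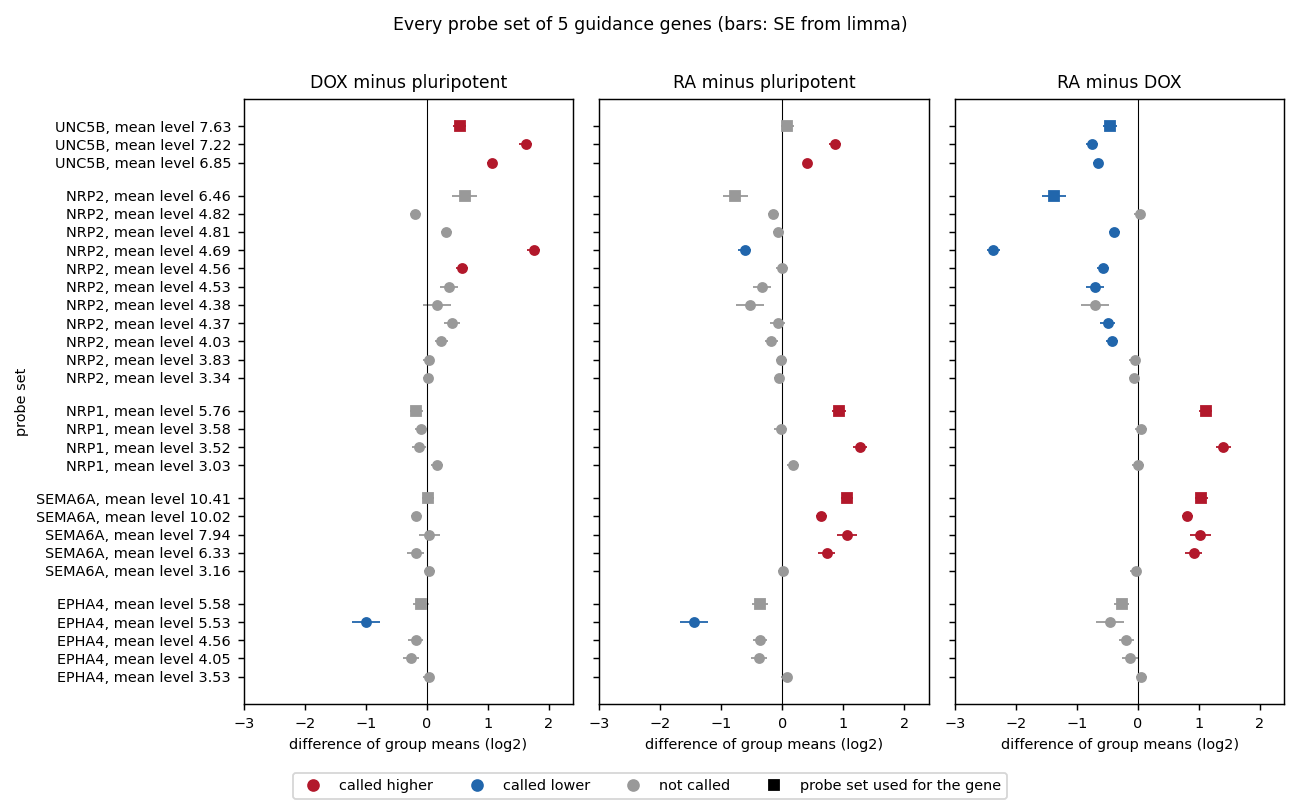
Log2 differences (horizontal axis) of every probe set of UNC5B, NRP2, NRP1, SEMA6A and EPHA4, 1 row per probe set with its mean signal, with panels for DOX minus pluripotent, for RA minus pluripotent, and for RA minus DOX. Squares mark the probe set used for the gene, and bars are SE from limma. UNC5B and NRP2 reach 1.62 and 1.75 after DOX on probe sets other than the one used.

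Of 75 measured partners of these families, among them other receptors, scaffolds and the small GTPases that turn guidance signals into cytoskeletal change, 13 were called higher and 11 lower after DOX. RHOB, a small GTPase induced by DNA damage, was at 3.48 ± 0.07 (adjusted p = 9.5e-10), a difference known from earlier results on these arrays. DPYSL4, of the collapsin response mediators that act downstream of semaphorins, was at 1.98 ± 0.09 (adjusted p = 1.7e-07), and FLRT3, a membrane protein that binds UNC5 receptors, at 1.62 ± 0.16 (adjusted p = 6.9e-05). SH2D3C, an adaptor of Eph receptors, was at 1.04 and FLRT2 at 0.67, while KDR (−0.63), the adaptor NCK1 (−0.59) and VAV3 (−0.54), a guanine nucleotide exchange factor, were lower, with adjusted p from 0.00031 to 0.015.

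After RA 1 partner gene was called higher and 10 lower. The higher one was DRAXIN, a secreted ligand of the netrin receptor DCC, with means of 8.24 after RA and 7.09 in pluripotent cells (1.15 ± 0.08, adjusted p = 6.2e-06). The lower ones included SRGAP1, a GTPase-activating protein that binds ROBO receptors (−1.0 ± 0.15, adjusted p = 0.002), MICAL2, an oxidase of actin (−0.90 ± 0.09, adjusted p = 8.3e-05), DPYSL3 (−0.70), RHOB (−0.62), RND2 (−0.56), TENM3 (−0.54) and INPPL1 (−0.52). For RA against DOX 7 partners were higher and 19 lower, the widest being RHOB (−4.10), FLRT3 (−2.14), DPYSL4 (−2.10), SRGAP1 (−1.40), MICAL2 (−1.36), SH2D3C (−1.15), DRAXIN (1.01) and RND3 (−0.93). Called partners made up 32% of the list after DOX, 14.7% after RA and 34.7% for RA against DOX, where 15.3%, 6.47% and 21.2% of all genes were called. The partners are brighter, with mean signals of 7.34 to 7.56 on the arrays against 6.23 to 6.25 for all genes. Shares among genes of like signal were not computed, and the list includes RHOB, whose difference was known. DCC itself lay below the median probe set on all 9 arrays.

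Marker lists of other cell types, set beside these results, differed between the groups in part. The mean signal of 17 fibroblast markers ranged from 5.98 to 6.01 on the RA arrays, 6.49 to 6.52 on the DOX arrays and 6.05 to 6.14 on the pluripotent arrays, and LUM, FAP, POSTN and PRRX1 lay below the median probe set throughout. After DOX 6 were called higher and 1, PDGFRA (−0.42), lower (41.2%, against 15.3% of all genes). The higher ones were ACTA2 (1.7), TAGLN (1.59), TWIST1 (1.41), COL1A1 (1.08), S100A4 (0.41) and THY1 (0.33). After RA 2 were called higher, COL1A1 (1.00) and COL3A1 (0.57), and 3 lower, TAGLN (−1.76), COL6A3 (−0.73) and THY1 (−0.37) (29.4%, against 6.47%). The mean of 9 markers of amnion, trophoblast and surface ectoderm ranged from 7.56 to 7.94 after RA, 7.01 to 7.12 after DOX and 6.49 to 6.55 in pluripotent cells. After RA 5 were called higher and 0 lower (55.6%), namely TFAP2A (4.55), GATA3 (3.2), TFAP2C (1.27), GATA2 (1.11) and ISL1 (0.8). After DOX 6 were called higher and 0 lower (66.7%), namely GATA3 (1.34), GATA2 (0.87), TFAP2A (0.85), TFAP2C (0.69), KRT8 (0.48) and KRT18 (0.42). At an unadjusted p under 0.05 in limma, 7 after RA and 6 after DOX differed in either direction. The 11 neural markers ranged from 5.79 to 5.87, 5.99 to 6.16 and 5.96 to 6.00 in the RA, DOX and pluripotent groups, and the 8 neural crest markers from 4.82 to 4.88, 4.87 to 5.00 and 4.79 to 4.99. These means hide calls in both directions. Neural markers were called higher in 2 and lower in 0 cases after DOX (18.2%), and in 1 and 2 after RA (27.3%). For neural crest markers 2 were higher, SNAI2 (1.02) and NGFR (0.93), and 1 lower, FOXD3 (−1.12), after DOX (37.5%). After RA 0 were higher and 1 lower, FOXD3 (−0.86) (12.5%). Of 9 endothelial markers 0 were called by limma against pluripotent cells in either comparison (0 at an unadjusted p under 0.05), and CDH5, TIE1, ERG, VWF, ESAM and EMCN lay below the median probe set on every array. The part of other cells in the guidance gene differences was not tested. The 8 measured markers of pluripotent stem cells were strong on every array, with a mean that ranged from 11.92 to 11.99 after RA, 11.79 to 11.92 after DOX and 12.02 to 12.10 in pluripotent cells. Of them PRDM14 (−1.29, adjusted p = 0.00076) and NANOG (−0.34, adjusted p = 0.036) were called lower after RA and SOX2 (−0.46, adjusted p = 0.0024) after DOX.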

How the data were processed

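Deposited values are log2 signals, 1 per probe set, of 1-colour Affymetrix arrays (54675 probe sets), made by the authors with RMA and affy per the submitters' processing notes, with no versions given there. RMA corrects the background, normalizes between arrays by quantiles and compresses differences of dim probe sets. The log2 scale was read from the values (2.36 to 14.8, array medians 4.62 to 4.68). Correlations between arrays of a group were 0.996 to 0.998. The number of arrays, 3 a group, limits the precision.

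Control probe sets (62) were left out, as were probe sets whose platform annotation gave several genes (1801) or none (11721). Of 41091 with 1 gene, 41037 matched RefSeq (GRCh38.p14) by Entrez identifier. Each of 19775 genes was represented by its probe set with the highest mean. A linear model with 3 groups was fitted to all 9 arrays in limma 3.58.1 (R 4.3.3), and p-values were adjusted over all genes (Benjamini-Hochberg). The fit was tested on simulated data. Over the 3 comparisons it called 95 to 97% of simulated log2 shifts of 1, but 53 to 68% of the smaller shifts simulated. Few genes were shifted there, with independent noise, and many more genes were called on the real arrays. The rates may therefore differ for these data. A gene that was not called can still differ.

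The members and the gene lists were chosen with earlier results of these data known. Named were all members called in any comparison or past a log2 difference of 1, the brightest of each family, those below the median probe set, and up to 8 called partners per comparison. EPHA4 and other members named for their range or their probe sets were added after their values were seen. Alternatives concerned the probe set of a gene, a filter on low values, the spread model, the samples fitted, normalization, array weights, a replicate block and each array left out.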

Additional observations from a re-analysis of the deposited data

How the results depend on the processing

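Of the guidance genes called, 7 of 17 for DOX against pluripotent (EFNA4, EPHA2, NTN4, PLXND1, SEMA4D, SEMA7A and UNC5B), 2 of 7 for RA against pluripotent (SEMA3A and SEMA6A) and 14 of 23 for RA against DOX kept their call under every alternative in which they were tested. EFNA4, PLXNB1 and SEMA4B had no probe set left without those ending in x_at and s_at, and NTN4 was not among the genes above the median probe set, so these were not tested there. Signs turned in 3 cases, all on another probe set of the gene. NRP1 was at −0.033 for RA against pluripotent without the x_at and s_at probe sets. SLIT2 was at −0.012 for RA against pluripotent and −0.049 for RA against DOX, both in that setting and with the probe set of largest variance. When all probe sets of a gene were averaged, SEMA3A was at −0.199 after DOX (adjusted p = 0.14).

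For DOX against pluripotent, leaving out 1 array gave 5 to 7 guidance genes higher and 4 to 13 lower (13 without pluripotent replicate 3), and 1129 to 2208 genes lower among all. For RA against pluripotent it gave 3 to 6 guidance genes higher and 1 to 3 lower, and among all genes 406 to 526 higher and 435 to 644 lower. Without the x_at and s_at probe sets 2 guidance genes were higher and 1 lower after RA, with 407 genes lower among all. The guidance genes lower after RA numbered 1 with only the compared groups, 5 with array weights and 1 with the replicate block, where NRP2 (adjusted p = 0.067) and NTN1 (adjusted p = 0.087) lost their calls.

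The labels number the replicates but do not say whether same-numbered arrays are paired. Correlations of the deviations of same-numbered arrays were 0.13, 0.037 and 0.151 for DOX with pluripotent, −0.103, 0.199 and 0.138 for RA with pluripotent and 0.067, 0.088 and −0.039 for RA with DOX. With the replicate block, 8 guidance genes were higher and 9 lower after DOX, 4 higher and 1 lower after RA, and 13 higher and 10 lower for RA against DOX.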

Other observations

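Identical values occurred on several arrays. Of the 67 guidance genes 11 (16.4%) had the same value, to 6 decimals, on 3 or more arrays, against 21.8% of all 19775 genes. EPHB6 had the same value on 5 arrays, ROBO4 and UNC5C on 4, and EFNB1, EPHA3, EPHA10, NTN5, PLXNA4, ROBO3, SEMA3C and UNC5A on 3.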
